A study of Mus musculus with 4 samples.

Results

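The comparison described here is that of a pair of mouse induced pluripotent stem cell (iPSC) lines, labelled 38 h and 10 day, over the genes of chromosomes 1 to 19. Members were genes on those chromosomes with a probe set that names no other gene, each read by its probe set with the highest mean. They stood at or above the array's median, taken over probe sets with 1 gene symbol, on 1 or both iPSC arrays. There were 11296 such genes, of 21062 autosomal genes and 22180 genes in all; the other 9766 autosomal genes lay below that median, called the floor here, on both arrays. The floor was 6.66 on the 38 h array and 6.67 on the 10 day array, on a log2 scale. Both lines are described as stable clones made from fibroblasts with a knockdown of Sumo2, a small ubiquitin-like modifier, and the labels do not say what 38 h and 10 day count. The series also holds day 6 bulk cultures of reprogrammable mouse embryonic fibroblasts, with knockdown of Firefly (an insect luciferase, used as control) or of Sumo2, sampled 6 days after doxycycline was added. All 4 samples carry the strain label Black6-129X1/SvJ and a label of mixed sex, were grown in embryonic stem cell medium with 20% serum, and have ascorbic acid and doxycycline given as treatment of the fibroblasts. Each line and each culture was read on 1 array, so a difference between the lines has no replicate check, no p-value is given, and a difference between lines cannot be told apart from one between clones, dishes or arrays.

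Pluripotent cells of the mouse correspond to the epiblast of the early embryo, and a culture of them usually holds some cells that have begun to differentiate. The first alternative fate of the inner cell mass is primitive endoderm, which is driven by FGF signalling through ERK and by the factors Gata6, Gata4, Sox17 and Sox7, and which gives rise to the visceral endoderm that takes up nutrients for the embryo. Trophoblast, the outer layer, forms the placenta under factors such as Cdx2, Tfap2c and Eomes. In bulk RNA, fewer cells of a type and less RNA per cell cannot be told apart.

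Nanog and Sox2 stood above both day 6 cultures in both lines. Nanog, a core pluripotency factor, was at log2 12.05 in the 38 h line and 12.50 in the 10 day line, against 7.54 and 9.87 in the day 6 Firefly culture and the one labelled Sumo2 knockdown. Sox2 was at 12.03 and 11.96 in the lines and at 6.10 and 6.55 at day 6. Pou5f1 was at 8.56 and 8.39, and the reprogramming factor Klf4 at 10.82 and 11.09. Myc, the fourth reprogramming factor, was at 8.80 in the 38 h line and 8.06 in the 10 day line. Sumo2 itself was at 11.40 and 11.07, and at 10.65 and 10.56 in the day 6 cultures with Firefly and with labelled Sumo2 knockdown, so at day 6 its level differed little between the Firefly culture and the one named for its knockdown.

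Most genes were close between the lines. The median difference, 38 h minus 10 day, was 0.03 on the log2 scale, with quartiles of -0.15 and 0.20, and 7353 genes (65.1%) lay within 1.2-fold. The levels correlated across genes at r = 0.963, and genes are not independent replicates. At least 2-fold apart were 300 genes (2.66% of those measured). Of these, 119 were higher in the 38 h line (1.05%) and 181 in the 10 day line (1.6%). Between the day 6 cultures, 118 of the same genes (1.04%) were 2-fold apart. With values under the floor raised to it, 91 and 141 genes were left. The last gene inside the 2-fold rule was Atp2a3 on the 38 h side, at 2.003-fold, with Irf8 just outside at 1.996-fold. On the other side Il6ra was just inside at 2.002-fold and Rragd just outside at 1.9999-fold.

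**Figure D1:**
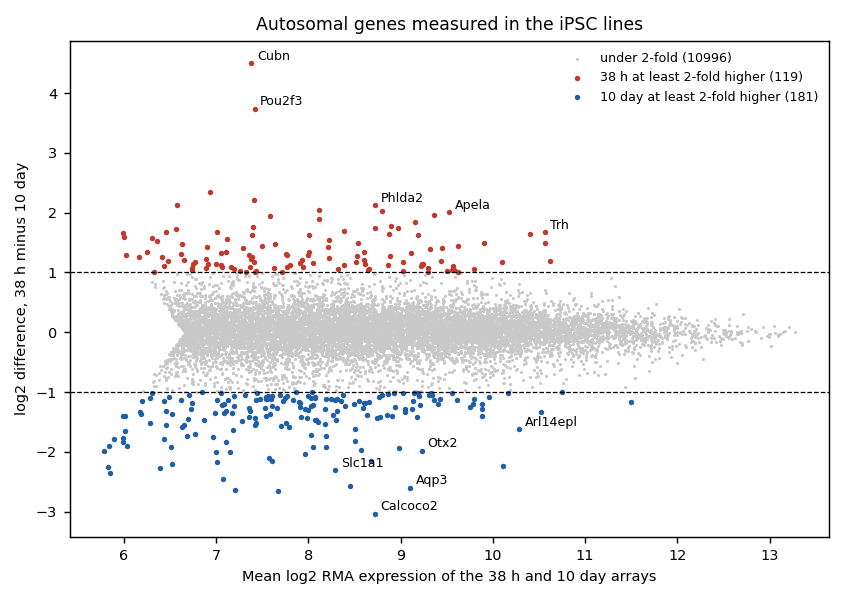
Each point is 1 of the 11296 autosomal genes, at its mean log2 RMA expression on the iPSC arrays (x axis) and its log2 difference, 38 h minus 10 day (y axis); dashed lines mark 2-fold. The 119 red and 181 blue points lie past 2-fold, with Cubn and Pou2f3 the highest and Calcoco2 the lowest.

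The genes apart between the lines were set beside the day 6 cultures. Of the 181 genes higher in the 10 day line, 97 (53.6%) were below the floor on both day 6 arrays, as were 36 (30.3%) of the 119 higher in the 38 h line and 922 (8.16%) of all genes measured. The 10 day line stood at least 2-fold above both day 6 cultures for 134 of its 181 genes, and for 1416 of all genes measured. The 38 h line stood 2-fold above both for 47 of its 119, and for 1410 of all. For 34 of those 119, and for 715 of all, the 10 day line stood 2-fold below both. Each side was chosen for being high on its own array, so part of these counts is built in. By kind, the 38 h side held 102 protein coding, 9 miRNA, 5 snoRNA and 3 lncRNA genes. The 10 day side held 154 protein coding, 10 miRNA, 1 snoRNA and 13 lncRNA genes.

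MicroRNA genes made up 7.56% of the 38 h side and 5.52% of the 10 day side, against 0.965% of all genes measured, and most lay in clusters described further on. Those of the 38 h side are 9 hairpins of the imprinted Dlk1-Dio3 region of chromosome 12. Among them, Mir487b, Mir1193, Mir493, Mir377, Mir758 and Mir679 were below the floor in the 10 day line. Counted from the floor, the log2 differences were 0.12 for Mir487b, 0.26 for Mir1193, 0.63 for Mir493, 0.83 for Mir377 and 0.95 for Mir758. Those are short of 2-fold. On the 10 day side, Mir669g, Mir130a, Mir196a-1, Mir205, Mir466n and Mir669e were below the floor in the 38 h line. The mature products of the 9 hairpins are printed here because that region holds most of the neighbouring genes that were higher together in the 38 h line. The sequences are those of RefSeq on GRCm38.p6, 5′ to 3′, with the seed, bases 2 to 8, in capitals. All 43 hairpins of the region with a probe set were found there.
miR-493-5p: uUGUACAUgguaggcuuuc
miR-493-3p: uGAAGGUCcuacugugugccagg
miR-758-5p: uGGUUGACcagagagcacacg
miR-758-3p: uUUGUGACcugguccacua
miR-329-5p: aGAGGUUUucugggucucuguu
miR-329-3p: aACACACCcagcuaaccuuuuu
miR-679-5p: gGACUGUGaggugacucuuggu
miR-679-3p: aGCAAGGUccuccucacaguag
miR-1193-5p: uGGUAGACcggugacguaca
miR-1193-3p: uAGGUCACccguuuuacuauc
miR-487b-5p: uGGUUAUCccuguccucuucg
miR-382-5p: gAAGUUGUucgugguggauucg
miR-382-3p: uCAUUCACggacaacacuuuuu
miR-453: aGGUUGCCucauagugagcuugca
miR-377-5p: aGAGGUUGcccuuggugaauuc
miR-377-3p: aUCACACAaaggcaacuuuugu
No seed was shared among the sequences printed. 4 were shared with another hairpin of the region: GGUUGAC of miR-758-5p with miR-1197-5p, GGUUGCC of miR-453 with miR-496a-5p, GGUAGAC of miR-1193-5p with miR-379-5p, and AGGUCAC of miR-1193-3p with miR-370-5p. The probe sets read the hairpin or the transcript that holds it, so the arms were not told apart.

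On the 38 h side the widest differences were those of Cubn and Pou2f3. Cubn, the endocytic receptor cubilin, was at log2 9.63 in the 38 h line and 5.13 in the 10 day line, which is below the floor, and at 6.30 and 6.41 in the day 6 cultures. It was thus high on the 38 h array alone, at least 7.80-fold above the 10 day line counted from the floor. Pou2f3, a POU-domain factor of epidermal and chemosensory tuft cells, was at 9.29 and 5.55 in the lines and 5.48 and 5.56 at day 6, at least 6.15-fold higher in the 38 h line. Phlda2, an imprinted gene that limits placental growth, was at 9.78 and 7.66 in the lines and 5.64 and 5.66 at day 6, a 4.35-fold difference. Apela, which encodes a peptide ligand of the apelin receptor made by pluripotent cells, was at 10.53 and 8.52 (4.02-fold), and Trh, the precursor of thyrotropin-releasing hormone, at 11.40 and 9.73 (3.19-fold). Apela stood at 8.59 and 10.06 and Trh at 10.74 and 11.66 in the day 6 Firefly and labelled Sumo2 cultures, so for both genes at least 1 day 6 culture was above the 10 day line. Genes known from the nervous system were on both sides. Crmp1 (9.81 and 7.79) and the axon guidance gene Ntn1 (8.56 and 6.62) were higher in the 38 h line. So were the neurofilament gene Ina (10.00 and 8.37) and the proteoglycan gene Ncan (8.0 and 6.59). Ntn1 and Ncan were below the floor in the 10 day line. Higher in the 10 day line were Ppp2r2c (7.70 and 9.32), Mobp (7.35 and 8.85) and Sema5a (6.71 and 8.14). Further members of the 30 highest were Emb, a partner of monocarboxylate transporters (1.02 on the log2 scale by the median of its probe sets, against 1.96), Ccdc141, Igsf21, the deubiquitinase gene Usp44, Polr3gl, Muc3a, Actn3, Ivns1abp, Bcl6b, Cemip2 and Bnc2. Gna14, a G-protein subunit, was at 8.11 in the 38 h line and 5.76 in the 10 day line but at 10.38 and 10.27 at day 6.

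On the 10 day side the widest differences counted from the floor were those of Calcoco2, Aqp3 and Slc16a5. Calcoco2, an autophagy receptor, was at 7.20 in the 38 h line and 10.24 in the 10 day line, an 8.23-fold difference, and at 6.00 and 5.99 at day 6. Aqp3, a water and glycerol channel of epithelia, was at 7.80 and 10.40 in the lines (6.06-fold) and at 5.79 and 7.23 at day 6. Slc16a5, of the monocarboxylate transporter family, was at 7.16 and 9.74 (5.95-fold); its log2 difference of -2.57 was -1.64 by the median of its probe sets. The 10 day array was the highest of the 4 for each of these. Genes known from epidermis were on both sides. Krtdap (7.61 and 9.76) and the neighbouring lipoxygenase genes of the skin barrier Aloxe3 (6.94 and 8.98) and Alox12b (6.65 and 8.20) were higher in the 10 day line, and Pou2f3 and the transglutaminase gene Tgm1 (10.15 and 8.75) in the 38 h line. Of the keratinocyte list, 3 of 5 measured genes were higher in the 38 h line, against 54.1% of all genes measured, and 0 were 2-fold apart. Slc1a1 and Slc1a3 are both glutamate transporters and stood on opposite sides: Slc1a1 was at 7.14 in the 38 h line and 9.45 in the 10 day line, and Slc1a3 at 8.38 and 6.90. Genes known from immune cells were also on both sides. Higher in the 10 day line were H2-Ab1, of MHC class II (7.0 and 8.52), Cd3e, of the T cell receptor complex (7.34 and 8.81), and Ube2l6, the conjugating enzyme of the interferon-induced modifier Isg15 (7.16 and 8.89). Srgn and Stat4 (8.92 and 7.50), both also known from blood cells, were higher in the 38 h line, as were 3 of 7 measured genes of the blood and macrophage list, 0 of which were 2-fold apart. Matn1, a cartilage matrix gene, Slco4c1, an anion transporter, and Cyp2b23 were below the floor in the 38 h line and at 8.52, 8.10 and 8.31 in the 10 day line. Other members of the 30 lowest were the calcium pump gene Atp2b4, Rasgef1a, the citrate transporter gene Slc13a5, the glutaredoxin gene Glrx, Arl14epl, Ppp2r2c, B3glct, Car8, Mobp, Urgcp, Sema5a and S100a1.

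**Figure D2:**
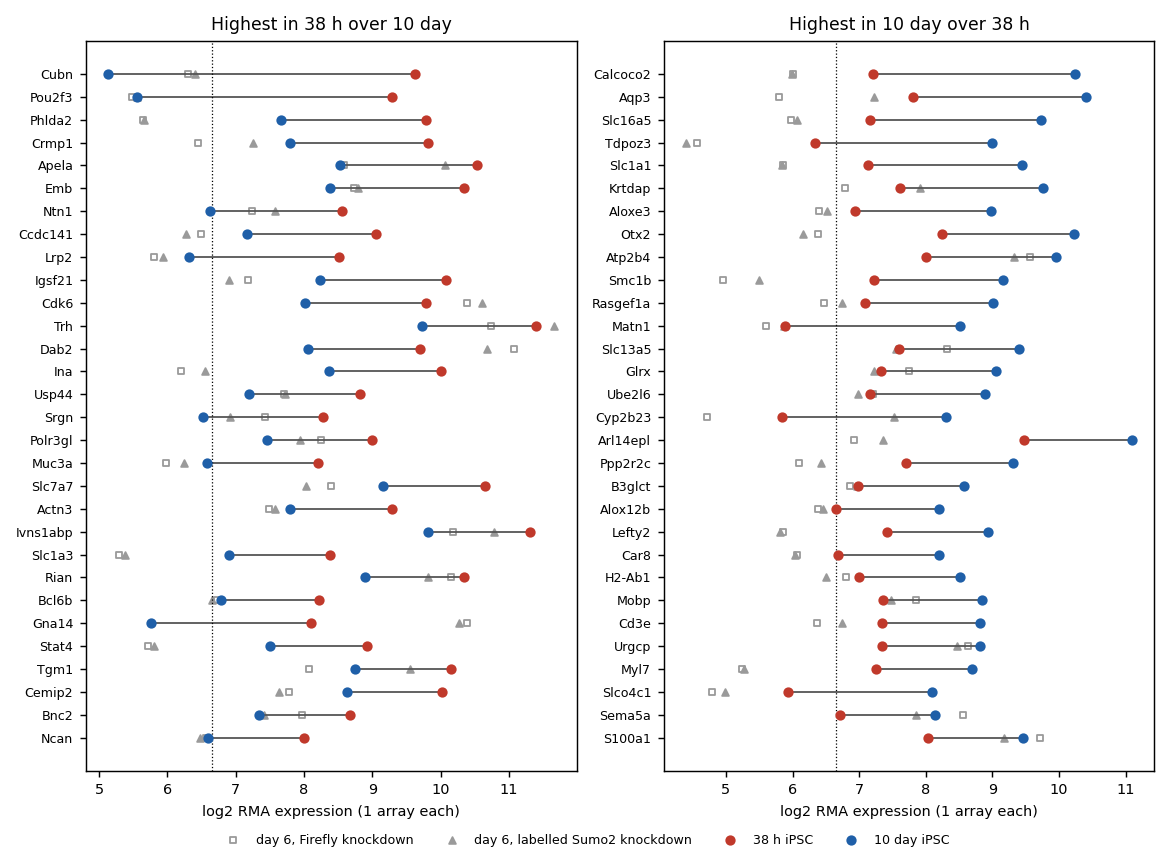
The 30 highest (left) and 30 lowest (right) autosomal genes by the 38 h minus 10 day difference, with log2 RMA expression on all 4 arrays, 1 point an array; the dotted line is the 38 h floor of 6.66. Cubn spans from 5.13 to 9.63, and Calcoco2 from 7.20 to 10.24.

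Of the lineage lists, which differ in size, primitive and visceral endoderm had the most members 2-fold higher in the 38 h line. Of 48 genes with a probe set, 30 were measured, 19 of them higher in the 38 h line, against 54.1% of all genes measured. By 2-fold, 6 were higher in the 38 h line and 1 in the 10 day line, against 1.05% and 1.6% of all genes measured. The list's median difference was 0.21, and 0.12 with no floor. The 6 were Cubn, Lrp2, Dab2, Srgn, Gata6 and Lama1. Lrp2 encodes megalin, which binds cubilin on the visceral endoderm, and Dab2 the adaptor that sorts both into clathrin-coated pits. Lrp2 was at 8.52 in the 38 h line and 6.31 in the 10 day line, and at 5.80 and 5.94 at day 6, at least 3.60-fold higher in the 38 h line. Dab2 was at 9.69 and 8.05 in the lines (3.12-fold) but higher at day 6, at 11.07 and 10.68. Srgn, the proteoglycan serglycin, was at 8.28 and 6.52, below the floor in the 10 day line, and at 7.43 and 6.92 at day 6. Gata6 was at 8.41 and 7.12 (2.46-fold), and at 6.49 and 6.39 at day 6. The laminin gene Lama1 was at 10.12 and 9.01 (2.15-fold), and at 9.39 and 9.36 at day 6. For Dab2, Srgn and Lama1, both day 6 cultures thus stood above the 10 day line. Short of 2-fold were Sox7 (7.17 and 6.20, a difference of 0.97), Gata4 (7.82 and 6.89), the laminin gene Lamb1 (10.23 and 9.38) and Pdgfra (7.56 and 6.76). Of the 30 measured, 11 were higher in the 10 day line. The 1 member 2-fold higher there was Cpn1, a carboxypeptidase subunit, at 8.48 and 9.76.

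The same list also had members with little or no signal. Sox17, a factor of that lineage, was below the floor on both arrays, at 6.04 and 5.98. So were the visceral endoderm secretory genes Afp (5.56 and 5.36), Apob (5.96 and 5.27), Apoa1 (6.58 and 6.41) and Fgb (4.26 and 3.99). Ttr (6.81 and 6.54) and Hnf4a were near the floor. The collagen genes Col4a1 (8.13 and 8.51) and Col4a2 (7.98 and 8.26), also of the endoderm's basement membrane, were higher in the 10 day line. In the list of definitive endoderm, 6 of 9 measured genes were higher in the 38 h line, against 54.1% of all genes measured. Trh was 2-fold apart and the tight junction gene Cldn6 was next at 10.12 and 9.12.

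**Figure D3:**
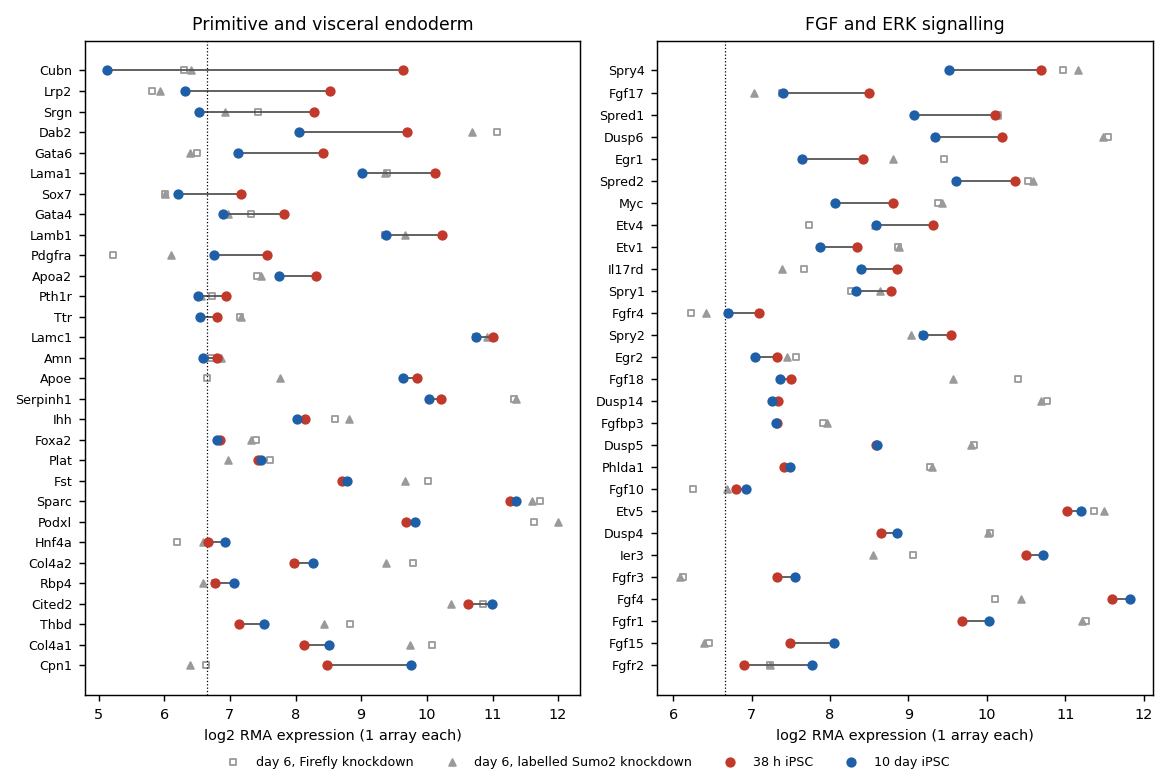
log2 RMA expression on all 4 arrays for the 30 measured genes of primitive and visceral endoderm (left) and the 28 of FGF and ERK signalling (right), ordered by the 38 h minus 10 day difference; the dotted line is the 38 h floor. Cubn, Lrp2 and Spry4 are at the top of the panels, and Cpn1 and Fgfr2 at the bottom.

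The sequences upstream of Cubn, Lrp2 and Dab2, whose RNA was higher in the 38 h line, are printed to show that they are unlike in base composition. No protein was measured. Each is the 250 bases before the gene's start in RefSeq on GRCm38.p6, read 5′ to 3′ on the gene's strand, with CG pairs in capitals. Cubn lies on the minus strand at chr2:13491877-13492126 and Lrp2 on the minus strand at chr2:69586030-69586279. Dab2 lies on the plus strand at chr15:6299539-6299788.
Cubn: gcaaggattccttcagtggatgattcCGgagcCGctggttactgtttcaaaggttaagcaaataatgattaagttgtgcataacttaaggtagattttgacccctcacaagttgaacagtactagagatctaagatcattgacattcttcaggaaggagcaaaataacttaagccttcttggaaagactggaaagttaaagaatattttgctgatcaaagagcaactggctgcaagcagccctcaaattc
Lrp2: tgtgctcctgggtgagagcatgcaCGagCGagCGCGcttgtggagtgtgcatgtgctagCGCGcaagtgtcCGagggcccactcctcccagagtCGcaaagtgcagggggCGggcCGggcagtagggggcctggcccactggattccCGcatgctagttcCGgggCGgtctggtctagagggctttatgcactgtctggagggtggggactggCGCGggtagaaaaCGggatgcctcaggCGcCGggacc
Dab2: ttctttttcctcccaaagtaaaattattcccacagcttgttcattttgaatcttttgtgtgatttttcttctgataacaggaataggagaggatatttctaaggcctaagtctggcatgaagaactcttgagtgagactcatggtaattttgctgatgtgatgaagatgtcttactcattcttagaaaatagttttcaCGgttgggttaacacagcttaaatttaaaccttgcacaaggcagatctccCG
The Cubn and Dab2 windows hold 2 CG pairs each and the Lrp2 window 18. Over all genes apart between the lines with a window, fewer than 5 CG pairs were found in 14 of 82 on the 38 h side (17.1%) and in 42 of 123 on the 10 day side (34.1%). The share was 9.38% over the 8926 measured genes with a window and 44.5% over all 27025 windows searched. The median was 11.5 CG pairs on the 38 h side, 8 on the 10 day side and 16 over all measured genes. The letters TATAAA, on either strand, were in 17.1% of the 38 h windows, 13% of the 10 day windows, 6.17% of the measured genes' windows and 13% of all. AGATAA, letters that GATA factors bind, on either strand, was in 6.10%, 9.76%, 5.24% and 10.2% in the same order. A match is a description of these windows only.

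Of 20 measured trophoblast genes, 7 were higher in the 38 h line, against 54.1% of all genes, and the median difference was -0.37. By 2-fold, 4 members were higher in the 10 day line and 3 in the 38 h line, against 1.6% and 1.05% of all genes. 2-fold higher in the 10 day line were Tfap2c, a trophoblast and germ cell factor (8.06 and 9.48), Hand1 (6.45 and 7.77), Gata2 (7.97 and 9.12) and the keratin gene Krt8 (8.42 and 9.43). 2-fold higher in the 38 h line were Phlda2, Spry4 and Bmp4. Hand1 and Gata2 also belong to the mesoderm list, of which 6 of 14 measured genes were higher in the 38 h line. Epithelial genes split: 18 of 33 were higher in the 38 h line, 0 by 2-fold, while the desmosome genes Dsg2 (7.69 and 8.81) and Dsp (7.24 and 8.31) and Krt8 were 2-fold higher in the 10 day line.

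Among 47 measured pluripotency genes, 23 were higher in the 38 h line and 24 in the 10 day line, and the median difference was -0.04. Of all genes measured, 54.1% were higher in the 38 h line. Lin28b (7.26 and 6.04), Lin28a (10.07 and 9.04), both regulators of let-7 miRNAs, and Fgf17 (8.49 and 7.40) were 2-fold higher in the 38 h line as read; Lin28b was below the floor in the 10 day line and 0.59 apart on the log2 scale counted from it. Prdm14, a factor of naive pluripotency and germ cells, was at 8.20 and 9.61 and Tcl1, an Akt co-activator, at 9.28 and 10.48. Phc1 (11.65 and 11.07) and Gbx2 (8.36 and 7.45) were higher in the 38 h line, and Dppa2 (11.16 and 11.93) and Tbx3 (10.87 and 11.57) in the 10 day line. The list of primed pluripotency had 9 of 20 higher in the 38 h line. Its members Lef1 (9.78 and 8.45) and Otx2 (8.24 and 10.22) were 2-fold apart in opposite directions.

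Neural genes too were apart on both sides. Of 20 measured, 9 were higher in the 38 h line, against 54.1% of all genes measured. Otx2, a factor of the primed epiblast and forebrain, was at 8.24 in the 38 h line and 10.22 in the 10 day line (3.94-fold), and at 6.39 and 6.16 at day 6. Hesx1, a forebrain repressor, was at 6.36 and 8.0 and Zic2 at 9.04 and 10.06. On the other side Sox11 was at 7.61 and 6.19 (1.92-fold counted from the floor) and Sox1 at 7.78 and 6.75, with Sox4 at 8.13 and 7.15 just under 2-fold. Of 7 measured neural crest genes, 5 were higher in the 10 day line, with a median difference of -0.43 and none 2-fold apart; with no floor the median was -0.12. The endothelial list had 5 of 7 higher in the 10 day line, with Tie1 at 6.06 and 6.86 and Eng at 10.12 and 10.85.

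Of 21 measured germline genes, 8 were higher in the 38 h line, against 54.1% of all genes measured, and 13 in the 10 day line. The median difference was -0.17, and -0.10 counted from the floor. Smc1b, a meiotic cohesin subunit, was at 7.23 and 9.15 (3.79-fold) and Hormad1, of the meiotic chromosome axis, at 5.92 and 7.62 (1.96-fold counted from the floor). Sohlh2 was at 9.41 and 10.50 and Dazl, an RNA-binding germ cell protein, at 8.72 and 9.71. Ddx4, the germ cell helicase Vasa, was higher in the 38 h line at 9.94 and 9.42. Genes of the 2-cell stage embryo divided. Calcoco2, Tdpoz3 (6.34 and 9.0) and Usp17la (6.44 and 7.57) were 2-fold higher in the 10 day line as read, the last 1.89-fold counted from the floor. The Zscan4 genes, which mark a 2-cell-like state of pluripotent cells, lay close: Zscan4d was at 9.08 and 9.16 and Zscan4e at 10.96 and 10.90. Near-identical copies in the Zscan4, Usp17l and Tdpoz families may share probes, so which copy was read is uncertain.

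Fibroblast genes were a little higher in the 38 h line. Of 38 measured, 32 were higher there, against 54.1% of all genes measured, with a median difference of 0.21. Dcn (6.82 and 5.16) and Aspn (7.32 and 6.18) were 2-fold apart as read and 0 were when counted from the floor. The median level of the list was 9.50 in the 38 h line and 9.19 in the 10 day line, and 10.6 and 10.2 at day 6. Matrix genes on the 38 h side were Fstl1 (10.20 and 9.44), Postn (9.05 and 8.27) and Col6a2 (8.27 and 7.55). Thy1 was at 8.85 and 8.69 and Col1a1 at 10.64 and 10.38. Dab2 and Cdk6, both higher at day 6 than in either line, were also higher in the 38 h line, and the part of fibroblasts in these differences was not tested.

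Genes of FGF and ERK signalling were apart in both directions. Of 28 measured members, 17 were higher in the 38 h line, a share near the 54.1% of all genes. Of those, 3 were 2-fold higher, against 1.05% of all genes. The median difference was 0.21, but 0.12 under cyclic loess, 0.003 with no floor and 0.46 with the floor at the upper quartile. Among the ligands, Fgf17 was higher in the 38 h line, Fgf4, which drives primitive endoderm formation, was at 11.59 and 11.83, and Fgf15 at 7.49 and 8.04. The receptors were higher in the 10 day line for Fgfr2 (6.90 and 7.77), Fgfr1 (9.69 and 10.03) and Fgfr3 (7.32 and 7.55). Some feedback inhibitors that ERK induces were higher in the 38 h line. Spry4 was at 10.70 and 9.51 (2.27-fold) and Spred1 at 10.10 and 9.07. The ERK phosphatase gene Dusp6 was at 10.20 and 9.34 and Spred2 at 10.36 and 9.60. The target factors Egr1 (8.43 and 7.65), Etv4 (9.32 and 8.58) and Myc were also higher in the 38 h line. Dusp4 (8.65 and 8.85) and Etv5 (11.02 and 11.20) were a little lower there. Spry4, Dusp6, Spred2, Egr1 and Myc stood higher at day 6 than in either line.

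X-linked genes moved with the line and are given beside the FGF and ERK values because some act on that pathway. Of 393 measured X-linked genes, 354 were higher in the 10 day line, 77 by 2-fold, and their median difference was -0.57, a 38 h to 10 day ratio of 0.673. The autosomal median was 0.03. Dusp9, an ERK phosphatase, was at 11.01 in the 38 h line and 11.74 in the 10 day line, and Klhl13 at 8.70 and 10.92. Xist was at 8.29 and 8.99. The Y-linked genes Eif2s3y, Kdm5d and Uty were below the floor on both iPSC arrays. The part of the X-linked difference in the autosomal results was not tested.

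Other signalling lists had single members apart, and in the Nodal, BMP, Wnt and LIF lists the share higher in the 38 h line was near the 54.1% of all genes. In Nodal signalling, 10 of 21 were higher in the 38 h line and Lefty2, a secreted Nodal inhibitor, was at 7.41 and 8.94 (2.89-fold lower in the 38 h line), while its paralog Lefty1 was at 8.82 and 8.56. In the BMP list, 12 of 20 were higher in the 38 h line: the ligand Bmp4 was at 9.80 and 8.79, the target Id1 at 7.75 and 7.22, and the inhibitor Smad6 at 8.17 and 8.88. In the Wnt list, 22 of 36 were higher in the 38 h line. Lef1, a nuclear partner of beta-catenin, was the one past 2-fold, and Wnt7b at 6.52 and 7.50 and Tcf7l1, a repressor of Wnt targets, at 10.19 and 10.77 were higher in the 10 day line. Of the LIF and Stat3 list, 12 of 21 were higher in the 38 h line. The receptor gene Il6ra (7.37 and 8.37), Lif itself (6.59 and 7.42) and Bcl3 (10.02 and 10.78) were higher in the 10 day line, and Stat3 was at 11.01 and 10.78. In the TGF-beta list Tgfbi, a secreted matrix protein induced by the pathway, was 2-fold higher in the 38 h line at 9.54 and 8.52. Of 12 interferon genes, Isg20 was 2-fold higher in the 10 day line at 7.0 and 8.08.

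Amino acid metabolism differed by small steps in a common direction. Of 20 measured genes of serine, glycine and one-carbon metabolism, 18 were higher in the 38 h line, against 54.1% of all genes, with a median difference of 0.23. Cth, the last enzyme of cysteine synthesis, was the one 2-fold apart, at 10.03 and 8.84, and was at 10.52 and 10.65 at day 6. Mthfd2, a mitochondrial folate enzyme, was at 10.18 and 9.55, the serine synthesis genes Psph at 7.96 and 7.48 and Phgdh at 8.65 and 8.17, and Psat1 at 11.18 and 11.06. The exceptions were Ahcy (11.24 and 11.81) and Amt (9.86 and 10.30). Of 30 targets of Atf4 and genes of amino acid supply, 23 were higher in the 38 h line, with a median difference of 0.22. Slc7a7, an exporter of cationic amino acids, was at 10.65 and 9.15 (2.83-fold) and Chac1, a glutathione-degrading enzyme induced by Atf4, at 9.11 and 7.93. Gpt2 (10.53 and 9.71) and the glutamine synthetase gene Glul (10.25 and 9.61) were short of 2-fold. The Atf4 targets Asns (12.18 and 12.22) and Ddit3 (8.44 and 8.49) lay close.

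The lists of energy metabolism had medians within the quartiles of all genes, of which 54.1% were higher in the 38 h line. Of 24 genes of the tricarboxylic acid cycle, 17 were higher in the 38 h line, with a median difference of 0.08 and none 2-fold apart. Of 23 glycolysis genes, 11 were higher in the 38 h line, none by 2-fold, with Eno3 (9.55 and 8.67) and Pgm2 (10.18 and 10.86) among the widest. The hypoxia list had 20 of 27 higher in the 10 day line, with a median difference of -0.13 and none 2-fold apart: Vegfa was at 10.68 and 11.36, Ndrg1 at 10.57 and 11.29 and Ak4 at 10.68 and 11.30, while Epas1, a hypoxia-inducible factor, was higher in the 38 h line at 9.80 and 8.88. Of 60 respiratory chain genes, 36 were higher in the 10 day line, and the cytochrome oxidase subunit gene Cox7a1 was 2-fold higher there at 8.35 and 9.38. Of 31 lipid genes, 16 were higher in the 38 h line, and Fabp5, a fatty acid carrier, was at 6.70 and 8.02. Another probe set of Fabp5 read 6.64 and 7.99, and one more 6.77 and 6.97, a difference of -0.20. The malic enzyme gene Me1 was at 9.93 and 10.73 and Acacb at 7.92 and 8.72. In the cell cycle list, 28 of 39 were higher in the 38 h line. Cdk6, the G1 kinase gene, was at 9.78 and 8.01 (3.41-fold), though at 10.38 and 10.61 at day 6, and Mycn at 10.05 and 9.13.

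**Figure D4:**
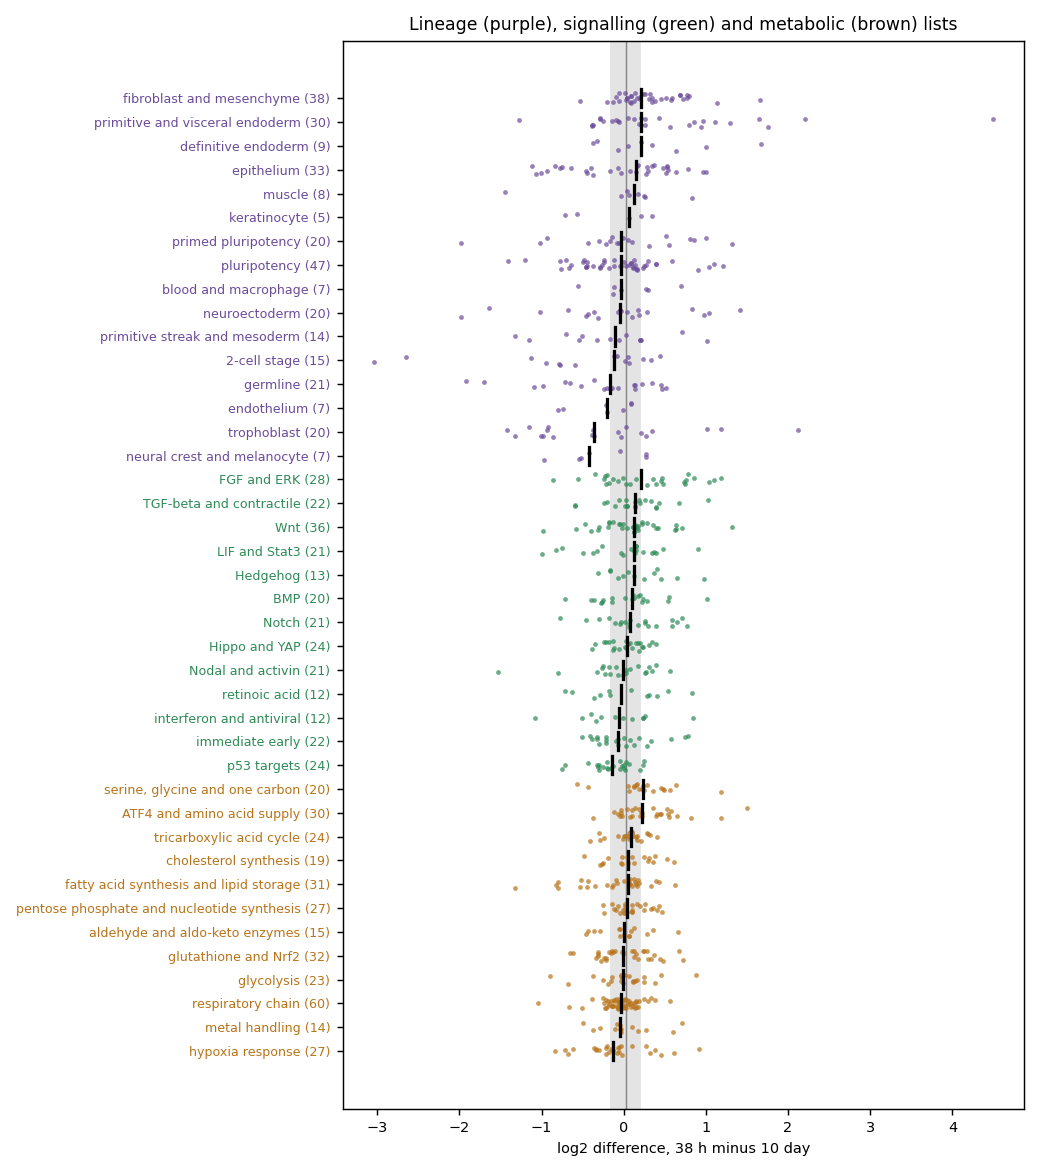
Each point is a measured gene of a list at its log2 difference, 38 h minus 10 day (x axis), with the list's median as a black bar and its number of measured genes in brackets; the grey band is the quartile range of all 11296 genes, -0.15 to 0.20. Medians lie above the band for primitive and visceral endoderm and below it for trophoblast.

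Over 49 lists, 48 had enough measured genes for a median, and the medians ran from -0.43 to 0.49. Above the upper quartile of all genes were 7: primitive and visceral endoderm, definitive endoderm, fibroblast, FGF and ERK, serine, glycine and one carbon, Atf4 and amino acid supply, and a short list for the Dlk1-Dio3 region and its neighbours with 4 measured genes (Dlk1, Rian, Begain and Wars), not the whole region described further on, which had the median of 0.49. Below the lower quartile were 5: trophoblast, germline, endothelium, neural crest and Hox. Several of these medians moved with the floor. With no floor they were -0.03 for endothelium, -0.07 for Hox and -0.06 for germline, and counted from the floor that of Hox was -0.02. Those of trophoblast (-0.27), serine, glycine and one carbon (0.22) and Atf4 (0.20) moved less with no floor.

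Imprinted genes, expressed from 1 parental copy, were apart in both directions. Of 24 measured, 13 were higher in the 38 h line, a share near the 54.1% of all genes measured. Phlda2 was 2-fold higher in the 38 h line, and Plagl1, a zinc finger factor, in the 10 day line (7.22 and 8.63). Dcn was 2-fold higher in the 38 h line as read. It was below the floor in the 10 day line and 0.15 apart on the log2 scale counted from it. Ndn was at 7.25 and 8.20, Mest at 10.10 and 9.39 and Grb10 at 10.69 and 9.89. The Dlk1-Dio3 region on chromosome 12 holds Dlk1 and Dio3, expressed from the father's copy, and a series of non-coding RNAs that is expressed from the mother's copy and often silenced in mouse iPSC. Of 54 genes there with a probe set, 25 were measured and all 25 were higher in the 38 h line, 15 by 2-fold, with a median difference of 1.23. Some of them passed the floor on the 38 h array alone, which favours that direction. Counted from the floor 8 were 2-fold apart and the median was 0.63. Over all 54, with those below the floor included, 48 were higher in the 38 h line and 18 by 2-fold, and the median was again 0.63. Rian, a long non-coding RNA that hosts snoRNAs, was at 10.35 in the 38 h line and 8.90 in the 10 day line, and at 10.15 and 9.81 at day 6, so the 10 day line was the lowest of the 4. All 5 snoRNA genes were 2-fold apart as read, with a median of 1.64: AF357425 was at 11.22 and 9.58 and AF357355 at 9.13 and 7.09. AF357426 (7.09 and 5.52) and DQ267101 (6.80 and 5.21) were below the floor in the 10 day line. Counted from the floor they were 0.42 and 0.13 apart on the log2 scale. RNAs from 1 host transcript are not separate readings. Of 18 miRNA genes measured, 9 were 2-fold apart; Mir453 was at 9.59 and 7.85 and Mir329 at 9.28 and 7.94. Dlk1 was at 8.18 and 7.92. Meg3, the first non-coding RNA of the run, was below the floor on both arrays, at 6.15 and 5.87, and near it at day 6. These miRNA and snoRNA genes fall outside the naming rule and were chosen after their values were seen.

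The other run lay in Sfmbt2 on chromosome 2, a Polycomb-related gene needed for the placenta, whose intron holds many miRNA copies. Of 23 genes with a probe set, 13 were measured, 12 of them higher in the 10 day line and 8 by 2-fold, with a median difference of -1.29. Some passed the floor on the 10 day array alone, and counted from the floor 6 were 2-fold apart and the median was -0.53. Sfmbt2 itself was at 8.01 and 9.20, and at 5.65 and 5.32 at day 6. Mir669k was at 8.16 and 9.55 and Mir669j at 8.40 and 9.70, while Mir467c was at 9.75 on both arrays and Mir466h was higher in the 38 h line at 7.73 and 7.28. The copies are nearly identical, so which of them a probe set reads is uncertain and they are not separate readings.

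**Figure D5:**
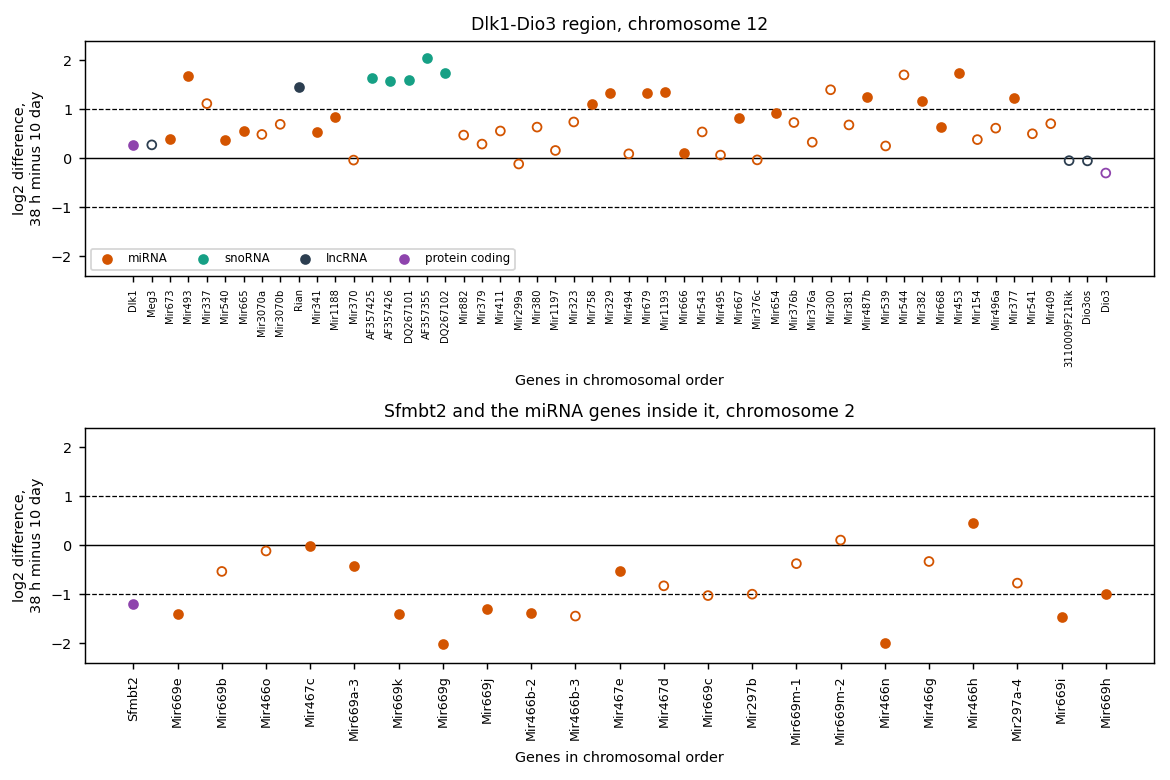
log2 difference, 38 h minus 10 day (y axis), of the genes with a probe set in the Dlk1-Dio3 region (top) and in Sfmbt2 (bottom), in chromosomal order (x axis); open circles were below the floor on both iPSC arrays and dashed lines mark 2-fold. The 25 filled points of the upper panel lie above 0, and 12 of 13 in the lower panel lie below it.

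By chromosome, the median difference ran from 0.002 to 0.069, against an SD of 0.38 over single genes. Chromosome 12 held 16 of the 119 genes higher in the 38 h line, 3.77% of its measured genes, and the next highest share was 1.85%. 15 of the 16 were those of the Dlk1-Dio3 region. Measured neighbours on a chromosome were both 2-fold apart in the same direction in 12 pairs on the 38 h side, 10 of them in that region, and in 21 pairs on the 10 day side. The latter included Aloxe3 with Alox12b, Cd3g with Cd3e, S100a1 with S100a13, Serping1 with Ube2l6, and Hoxc13 with Hoxc12. They also included Sfmbt2 and miRNA copies inside it, which are not separate readings, and Tdpoz2 with Tdpoz3, which may share probes. How many such pairs would arise without regard to position was not computed. Of 12 measured Hox genes, Hoxc13 (7.35 and 8.66) and Hoxc12 (6.99 and 8.22) were those 2-fold apart.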

How the data were processed

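The deposited table holds log2 levels, which the authors computed by RMA; the submitters' processing notes name Affymetrix Expression Console, and versions are not given in the sources used here. RMA equalises array distributions and draws the differences of dim probe sets towards 0, and arrays give no depth, so their number limits the precision. The log base is not written and was taken as 2, the scale RMA writes; values ran from 2.98 to 13.7. Of 41345 probe sets, 23521 had 1 gene symbol, 1814 several and 16010 none listed; 23328 entrez identifiers were found in RefSeq (GRCm38.p6), changing 0 symbols. The floor is each array's median over probe sets with 1 symbol. The size rule was 2-fold, with no test. The text names the 30 highest and 30 lowest genes counted from the floor among those past 2-fold, without predicted, clone-named, receptor-family and small RNA genes. It then names list members at least 2-fold apart and up to 4 more. Some further list members named in the text fall outside this rule, among them several of the FGF and ERK list. Their choice follows no stated rule. In each pair of values the 38 h line comes first. Members and gene lists were chosen with earlier results of these data known. Alternatives were other probe set, floor, normalization (limma 3.58.1 cyclic loess in R 4.3.3) and fold choices. Promoters of 1 chromosome were not used. The code that makes the calls was run on made-up data as a check of the code only. The error rate of the calls on these arrays was not tested.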

Additional observations from a re-analysis of the deposited data

How the results depend on the processing

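No paired analysis was possible because each group is 1 array and no replicate could be left out. With the floor at the upper quartile, which left 5892 genes, 56 genes were 2-fold higher in the 38 h line and 78 in the 10 day line. At 1.5-fold the counts were 477 and 566, and at 4-fold 9 and 19. Under the other alternatives they ran from 91 to 133 and from 141 to 211, with the lowest when values below the floor were set equal to it and the highest with no floor. The number of list medians outside the quartiles was 12. It was 6 with no floor, 5 of them shared, 17 with the floor at the upper quartile, 7 of them shared, and 9 with values below the floor set equal to it, all of them shared; the cause was not tested. The 60 genes of the naming rule were chosen for the size of their difference, so that they stayed past 2-fold where measured is no sign of stability; 42 of them were measured with the floor at the upper quartile. The range of chromosome medians lay between 0.04 and 0.08. Among 313 genes read by several probe sets, the SD of the difference between them had a median of 0.13 and reached 0.76. No replicate array exists, so the spread between cultures of 1 line is unknown.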
